A study of Mus musculus with 28 samples.

Results

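Insulin-like growth factors (IGFs) and the genes that handle them were followed through the repair of a skin wound in mice. The 10 genes described here were chosen by name from the 29068 genes of the count table. They are the ligand genes Igf1 and Igf2, the non-coding RNA gene H19, the receptor gene Igf1r and the binding protein genes Igfbp2, Igfbp3, Igfbp4, Igfbp5, Igfbp6 and Igfbp7. All 10 had enough counts to be tested, as had 18107 genes in all. The mice were wild type C57BL/6J (MLKL+/+) and 8 weeks old, and animals of both sexes were used in the study. A 6-mm punch wound reaching the fascia was made in the shaved back, and the whole wound site with its scab and epithelial margin was taken for RNA sequencing. There were 28 libraries, 4 each for day 0 and for days 3, 5, 7, 10, 12 and 14, and the labels treat day 0 as the control. The study's methods count the earliest time point as day 1, and the labels' name, day 0, is kept here. The sources used here do not say which mouse gave which library, so the p-values measure the spread between these libraries.

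IGF1 and IGF2 are secreted peptides that signal mainly through the receptor IGF1R, a tyrosine kinase that promotes growth and survival of cells. IGF binding proteins hold the ligands outside the cell, lengthen their life and limit or direct their access to the receptor, and IGFBP7 binds IGFs only weakly. In the mouse, Igf2 is expressed from the paternal and H19 from the maternal chromosome, and the neighbouring genes share enhancers and an imprinting control region. In skin, fibroblasts of the dermis and macrophages are known sources of IGF1.

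In the GENCODE annotation of the build GRCm38, H19 lay at chr7:142575529-142578143 and Igf2 at chr7:142650766-142666816, both on the minus strand and 72622 bases apart. Igf1r lay on the same chromosome at chr7:67952827-68233668. Igfbp2 (chr1:72824503-72852474, plus strand) and Igfbp5 (chr1:72857932-72874884, minus strand) faced each other tail to tail across 5457 bases. The other genes were spread over the genome, with Igf1 at chr10:87858265-87937042, Igfbp3 at chr11:7206086-7213923, Igfbp4 at chr11:99041244-99054392, Igfbp6 at chr15:102144362-102149511 and Igfbp7 at chr5:77349240-77408041.

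H19 and Igf2 each carry a microRNA. The mature sequences from RefSeq (GRCm38.p6) are shown because they are products of these transcripts that the gene counts do not measure, and because miR-675 is known to repress Igf1r. Capitals mark the seed, bases 2 to 8, and no seed was shared between the 4 sequences.
mmu-miR-675-5p: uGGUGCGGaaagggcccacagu
mmu-miR-675-3p: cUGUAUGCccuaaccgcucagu
mmu-miR-483-5p: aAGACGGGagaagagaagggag
mmu-miR-483-3p: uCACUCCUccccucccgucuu
The miR-675-5p sequence lay at chr7:142577112-142577133 and miR-675-3p at chr7:142577078-142577099, in an exon of 3 of the 7 annotated H19 transcripts. The miR-483-5p sequence lay at chr7:142654968-142654989 and miR-483-3p at chr7:142654932-142654952, inside Igf2 and outside every exon of its 9 annotated transcripts.

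The longest annotated 3′ untranslated region of Igf1r held the letters GCATACA, complementary to the seed of miR-675-3p, at bases 505 and 1264 of 7267. The windows around both matches are shown in the sense of the mRNA, with the 7 complementary letters in capitals.
Igf1r match at base 505: atcaccccGCATACAcctgcctg
Igf1r match at base 1264: aaacatttGCATACAcatcgtct
These letters occurred in the 3′ untranslated regions of 7.89% of 21022 genes, and among the genes described here only in that of Igf1r. That region was also the longest among these genes, the other protein-coding ones having 209 to 6308 bases, and the shares were not matched for length. The letters CCGCACC, complementary to the seed of miR-675-5p, were found in 1.84% of these regions and in none of those of the genes described here. For miR-483-3p the letters were AGGAGTG, found in 10.7% of these regions and once each in those of Igf1, Igf2, Igfbp3 and Igfbp5. For miR-483-5p they were CCCGTCT, found in 2.68% and in none of the genes described here. A match is a description of the sequence and was not tested as a binding site.

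The gene counts summed to 36706513 in the smallest and 40655764 in the largest library. Levels are given as raw counts or as FPKM, fragments per kilobase of gene scaled to the size of the library, which allows comparison between genes. Differences are log2 fold changes of edgeR's quasi-likelihood test on the counts with their standard errors (SE), and a gene passed when its p adjusted by Benjamini-Hochberg over all genes tested was under 0.05. The spread between libraries was largest on day 0, with a biological coefficient of variation of 26.5% against 5.77% to 10.8% on the other days. Day 0 replicates 1 and 4 stood apart from replicates 2 and 3. Skeletal muscle markers (Acta1, Ckm, Myh1, Myh4, Mylpf and Tnnt3) summed to 28686 and 29726 CPM (counts scaled to the size of the library) in replicates 1 and 4 and to 17062 and 17366 CPM in replicates 2 and 3. Matrix fibroblast markers (Col1a1, Col1a2, Col3a1, Dcn, Lum and Pdgfra) summed to 25002 and 14286 CPM in the former and to 55970 and 53733 CPM in the latter. Over all 28 libraries keratinocyte markers (Krt1, Krt5, Krt6a, Krt10, Krt14 and Krt16) summed to between 4293 and 7923 CPM and adipocyte markers (Adipoq, Cidec, Lep, Lipe and Plin1) to between 1283 and 2222 CPM. For the 10 genes, changes that the split of day 0 altered in call, in direction or by over 1.5 times are therefore given also against a pair alone, an alternative chosen after the data were seen. A pair of like libraries leaves out most of the spread of day 0 and can lower the SE, so a call against a pair alone does not settle a direction. Counts over lists of genes used all 4 day 0 libraries. The fit pools the spread over all days, so its SE does not carry the larger spread of day 0.

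**Figure D1:**
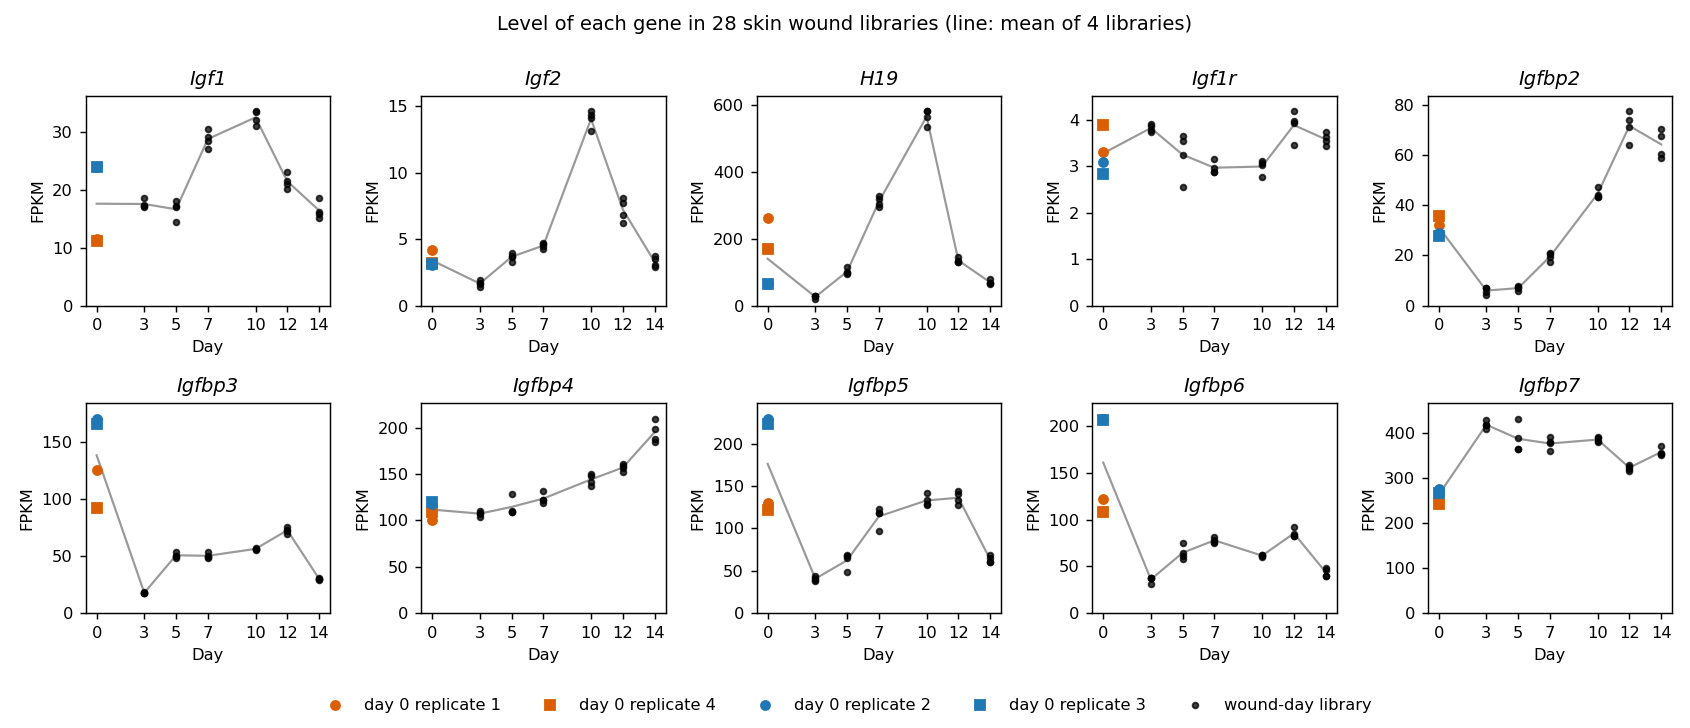
Level of each of the 10 genes in FPKM (y axis, from 0) against the day given by the labels (x axis), 1 point per library and a line through the means of 4 libraries. Coloured symbols are the day 0 libraries, in which replicates 1 and 4 (orange) lie apart from replicates 2 and 3 (blue) for Igf1, H19, Igfbp3, Igfbp5 and Igfbp6, while Igf2 and H19 reach their highest level on day 10.

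Against day 0, 2 of the 10 genes rose and 6 fell on day 3, beside 31.8% and 34.8% of all genes tested. Day 5 had 1 that rose and 4 that fell (29.0% and 30.6% of all genes), and day 7 had 4 and 4 (25.6% and 24.8%). Day 10 had 6 that rose and 3 that fell (23.5% and 26.9%), day 12 had 4 and 3 (21.7% and 25.6%), and day 14 had 3 and 4 (28.2% and 34.5%). Since large shares of the whole table passed each time, these counts by themselves do not set the 10 genes apart. The median log2 fold change of the 10 genes was -1.52 on day 3 and 0.39 on day 10, where that of all genes was -0.03 and -0.02. It was nearer to 0 at days 5, 7, 12 and 14, with -0.23, -0.00, 0.12 and -0.20. Neutrophil markers (Csf3r, Cxcr2, Retnlg, S100a8 and S100a9) summed to between 15.9 and 41.7 CPM on day 0, to between 4313 and 5453 CPM on day 3 and to between 219 and 244 CPM on day 10, with 5 of 5 higher than on day 0 on both days. Retnlg was at 0 in 1 library of day 14, and the part of these cells in the levels of the 10 genes was not tested.

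The study's methods used stricter limits, an absolute log2 fold change above 1.5 with an unadjusted P under 0.05. By these, none of the 10 was higher and 5 were lower on day 3 (6.50% and 12.4% of all genes), and none was higher and 1 was lower on day 5 (5.61% and 8.31%). Day 10 had 2 that were higher, Igf2 and H19, and none that was lower (4.33% and 5.14%). Day 14 had none that was higher and 3 that were lower (5.15% and 8.83%). None passed on day 7 (4.66% and 4.74% of all genes) or day 12 (3.89% and 3.51%). In a joint test over the 6 wound days, which leaves out day 0, all 10 passed, as did 85.1% of all genes.

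**Figure D2:**
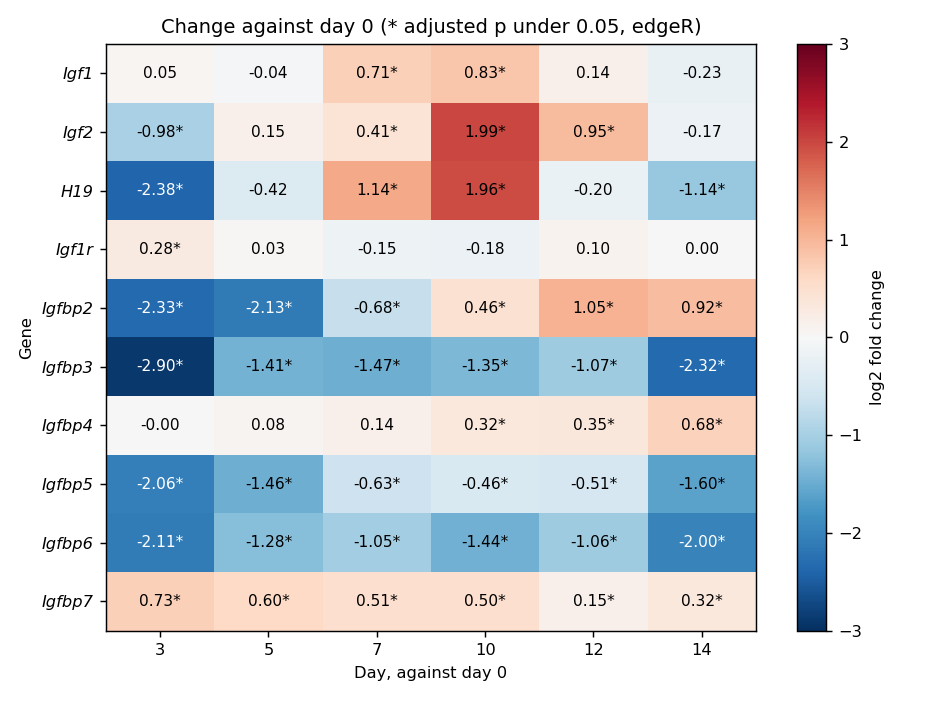
Log2 fold change against day 0 (colour and number) for each gene (rows) on each wound day (columns), with an asterisk where the adjusted p of edgeR's quasi-likelihood test was under 0.05. Igfbp3, Igfbp5 and Igfbp6 are lower on all 6 days, Igfbp7 is higher on all 6 days, and Igfbp2 passes from lower to higher between days 7 and 10.

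Igf1 encodes the main circulating and local growth factor of the family. It had 3849, 8328, 8091 and 3520 counts in day 0 replicates 1 to 4. On day 7 its counts were 10390, 10076, 9376 and 9750, and on day 10 they were 10672, 11402, 11360 and 10559. Each library from these late days exceeded each one of day 0, whose replicates 2 and 3 held more than those labelled 1 and 4. By edgeR with Benjamini-Hochberg adjustment the increase was 0.71 (SE 0.16, adjusted p = 0.0005) on day 7 and 0.83 (SE 0.16, adjusted p = 7.76e-05) on day 10. In a fit of only the 8 libraries of days 0 and 7 the former was 0.67 and did not pass. Day 10 was 1.98 times day 14 in mean FPKM, the widest ratio between wound days for this gene. Within the wound, Igf1 rose from day 5 to day 7 by 0.75 (SE 0.16), fell from day 10 to day 12 (-0.69, SE 0.16), and its other steps between neighbouring days did not pass.

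The direction for Igf1 on the remaining days depended on which day 0 libraries served as reference. The values with all 4 were 0.05, -0.04, 0.14 and -0.23 on days 3, 5, 12 and 14, none of which passed. Against replicates 2 and 3 alone they were -0.38, -0.48, -0.29 and -0.66, and against replicates 1 and 4 alone they were 0.74, 0.61, 0.79 and 0.49, all of which passed. The SE was 0.07 to 0.08 in these fits of like libraries and 0.16 with all 4, so the opposite calls do not settle a direction. The increases on days 7 and 10 passed against either pair, at 0.27 and 0.40 against replicates 2 and 3 and at 1.34 and 1.47 against replicates 1 and 4. Macrophage markers (Adgre1, C1qa, Cd163, Cd68, Csf1r, Lyz2 and Mrc1) summed to between 4943 and 5482 CPM on days 3 and 5 and to between 2224 and 2438 CPM on day 10, and none was at 0 in any library. Matrix fibroblast markers summed to between 21464 and 23560 CPM on day 3 and to between 39232 and 41683 CPM on day 5, a step in which Igf1 was at -0.09 (SE 0.16) and did not pass. They summed to between 52439 and 59655 CPM at days 7 and 10, to between 39576 and 46058 CPM on day 12 and to between 15978 and 19143 CPM on day 14. On day 0 they were higher in replicates 2 and 3, as Igf1 was. The part of either cell type in the level of Igf1 was not tested, and in whole tissue fewer cells of a type and less RNA per cell cannot be told apart.

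Igf2, the ligand best known for growth before birth, was lowest on day 3 and highest on day 10. Its counts were 930, 704, 700 and 675 on day 0. They were 315, 422, 378 and 355 on day 3, and 3106, 2958, 3297 and 3228 on day 10. The 4 libraries of day 3 lay below and the 4 of day 10 above all those of day 0, without overlap. The gene fell on day 3 (-0.98, SE 0.11) and rose on day 7 (0.41, SE 0.10), day 10 (1.99, SE 0.10) and day 12 (0.95, SE 0.10), and it was at 0.15 on day 5 and -0.17 on day 14, which did not pass. Against day 0 replicates 2 and 3 alone, day 5 was at 0.29 and passed, and day 14 was at -0.03. On day 7 the libraries overlapped on the CPM scale through day 0 replicate 1, and against day 0 replicates 1 and 4 alone the value was 0.28 (edgeR, Benjamini-Hochberg adjusted p = 0.052). The exact two-sided permutation test of that day gave p = 0.057 (adjusted over 60 tests 0.082).

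The mean of Igf2 on day 10 was 14.1 ± 0.64 FPKM (SD, n = 4), 8.51 times the 1.65 ± 0.20 FPKM of day 3. The rise was not even. The level changed by 1.13 (SE 0.11) from day 3 to day 5, by 0.26 (SE 0.10, not passed) from day 5 to day 7 and by 1.59 (SE 0.10) from day 7 to day 10. It then fell on both steps, by 1.05 to day 12 and by 1.12 to day 14 on the log2 scale. In the order of its levels, day 14, day 0, day 5 and day 7 followed each other without a neighbouring pair that passed, while day 3 below them and days 12 and 10 above them each differed from their neighbour.

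Per length, Igf1 was the more abundant ligand transcript on every day. Igf2 made up 8.57% ± 0.69 (SD, n = 4) of the summed FPKM of both genes on day 3, 30.1% ± 1.45 on day 10 and 16.7% ± 1.36 on day 14. On day 0 the share was 26.7% and 22.4% in replicates 1 and 4 and 11.3% and 11.5% in replicates 2 and 3. Both ligands together rose from 19.2 ± 0.93 FPKM on day 3 to 46.6 ± 1.12 FPKM on day 10 and were back at 19.8 ± 1.78 FPKM on day 14. These shares and sums were computed after the values were seen and describe transcripts, not peptides.

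H19, an imprinted non-coding RNA that is abundant in the embryo and in growing muscle, moved most among the 10 genes within the wound. It had 23499, 5904, 5803 and 14090 counts on day 0. On day 3 the counts were 1845, 2434, 2452 and 2531, and on day 10 they were 51430, 48134, 52447 and 51006. Every library of day 3 was below and every library of day 10 above all of day 0, and within day 0 replicates 1 and 4 held more than replicates 2 and 3. The mean on day 10, 565 ± 22.1 FPKM (SD, n = 4), was 21.8 times that of day 3, 25.9 ± 3.52 FPKM, and on the log2 scale the difference was 4.33 (SE 0.29).

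H19 passed in all 5 steps between neighbouring wound days. It rose by 1.95 (SE 0.27) to day 5, by 1.57 (SE 0.26) to day 7 and by 0.81 (SE 0.26) to day 10. It then fell by 2.16 to day 12 and by 0.94 to day 14 on the log2 scale. Of the 10 genes, it was the only one that passed in every step. In turn, 6, 4, 5, 8 and 7 of the 10 passed in these steps, beside 24.3%, 28.5%, 32.3%, 39.4% and 45.2% of all genes. Day 12 held 11825, 12456, 12144 and 13307 counts, below each library of day 10.

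Against day 0, H19 fell on day 3 (-2.38, SE 0.27) and day 14 (-1.14, SE 0.26) and rose on day 7 (1.14, SE 0.26) and day 10 (1.96, SE 0.26). On days 5 and 12 it was at -0.42 and -0.20, which did not pass. The choice of day 0 libraries decided the call on day 14, where the value was -0.01 against replicates 2 and 3 and -1.69 against replicates 1 and 4. On days 5 and 12 it turned the direction, with 0.71 and 0.93 against replicates 2 and 3 and -1.04 and -0.81 against replicates 1 and 4, all of which passed. The SE of these 4 values was 0.10 to 0.12, where it was 0.26 with all 4 day 0 libraries. The changes on days 3, 7 and 10 kept their direction and passed against either pair. Against replicates 2 and 3 they were -1.24, 2.28 and 3.09, and against replicates 1 and 4 they were -2.95, 0.52 and 1.33. In an exact two-sided permutation test of 4 libraries against 4, H19 on days 3, 7 and 10 had the smallest p that this design allows, 0.0286 (adjusted over 60 tests 0.044), and on day 14 it had p = 0.20 (adjusted 0.27). In fits of only the 8 libraries compared, the changes on days 7 and 14 were 1.12 and -1.07 and did not pass.

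Summed markers of 5 other cell types are given beside H19. Regenerating muscle markers (Mymk, Myod1, Myog, Myh3, Myh8 and Pax7) summed to 93.7 and 53.4 CPM in day 0 replicates 1 and 4, to 12.1 and 10.1 CPM in replicates 2 and 3, to between 6.39 and 6.96 CPM on day 3 and to between 101 and 115 CPM on day 10. Of these 6 genes, 5 rose from day 3 to day 10 and none fell, beside 30.7% and 28.4% of all genes. The same shares stand beside the counts of the other lists in this paragraph, which compare the same days. Matrix fibroblast markers summed to between 21464 and 23560 CPM on day 3 and to between 52439 and 59655 CPM on day 10, with 4 of 6 higher and 1 lower. Myofibroblast markers (Acta2, Cthrc1, Postn, Tagln and Tnc) summed to between 2170 and 2350 CPM on day 3 and to between 6635 and 7186 CPM on day 10, with 4 of 5 higher and 1 lower. Skeletal muscle markers summed to between 3882 and 4994 CPM on day 3, 4181 and 4535 CPM on day 7, 8179 and 10490 CPM on day 10 and 5899 and 6708 CPM on day 12, with 6 of 6 higher on day 10 than on day 3. Pericyte and smooth muscle markers (Cspg4, Des, Myh11, Notch3 and Rgs5) summed to between 783 and 872 CPM on day 3, 817 and 842 CPM on day 7, 1227 and 1383 CPM on day 10 and 654 and 709 CPM on day 12, with 3 of 5 higher and 1 lower. Both of these lists were higher in day 0 replicates 1 and 4 than in 2 and 3, as H19 was, and so were the myofibroblast markers, at 1239 and 1098 CPM against 722 and 715 CPM. The steps differed between lists. Myofibroblast markers moved in the direction of H19 in every wound-day step, with sums between 2558 and 2926 CPM at day 5, 4776 and 5377 CPM at day 7, 2957 and 3232 CPM at day 12, then 2227 and 2453 CPM at day 14. Regenerating muscle markers lay between 29.1 and 34.3 CPM on day 5 and between 29.3 and 31.4 CPM on day 7, over which H19 rose by 1.57. Matrix fibroblast markers already lay between 55049 and 56044 CPM on day 7, and on day 0 they were lower in replicates 1 and 4, where H19 was higher. No marker of these 5 lists was at 0 in any library, and their part in the course of H19 or Igf2 was not tested.

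Igf2 and H19 deviated together within days. After removal of the day means, the log2 CPM of the genes had a Pearson r of 0.62 (permutation p = 2e-05, adjusted over 2 relations 4e-05) and a Spearman rho of 0.76 (permutation p = 2e-05, adjusted 4e-05) over 28 libraries, with 100000 permutations within days. In the 24 wound-day libraries r was 0.75 (permutation p = 0.0005) and rho was 0.78 (permutation p = 0.00024). Without the 2 libraries whose Igf2 lay farthest from the median, replicate 1 of day 0 and replicate 1 of day 3, r was 0.44 and rho was 0.71. The second relation of the family, Igf1 with Igf2, had r = -0.31 (permutation p = 0.37, adjusted 0.37) and rho = -0.13 (permutation p = 0.60, adjusted 0.60), and r was 0.06 in the wound-day libraries and -0.37 without the 2 libraries farthest in Igf1. Both values of a pair come from the same library and share its depth and tissue piece.

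**Figure D3:**
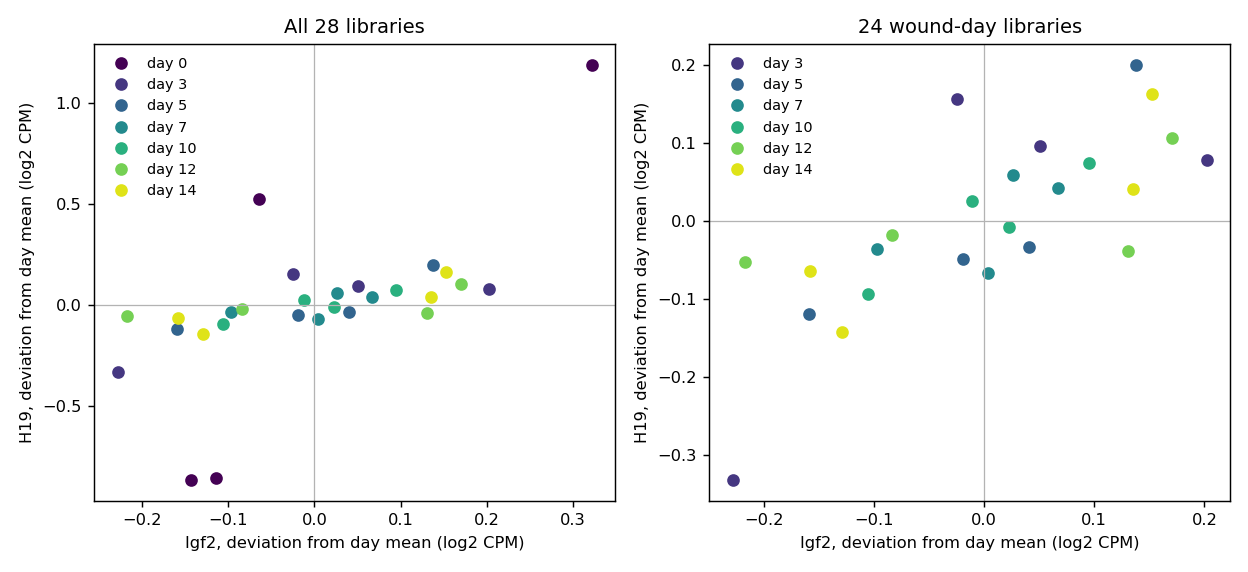
Deviation of H19 (y axis) against that of Igf2 (x axis) from their day means in log2 CPM, 1 point per library coloured by day, for all 28 libraries (left) and the 24 wound-day libraries (right). H19 spreads most on day 0, and within the wound days libraries with more Igf2 tend to hold more H19 (r = 0.75).

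The courses of Igf2 and H19 were alike without being proportional. The FPKM of H19 was 15.7 ± 1.58 times (SD, n = 4) that of Igf2 on day 3, 68.8 ± 2.81 times on day 7 and 40.2 ± 0.86 times on day 10, and between 18.8 and 27.7 times at days 5, 12 and 14. The ratio was highest on day 7, 3 days before the highest level of either gene. On day 0 it was 63.0 and 52.0 in replicates 1 and 4 and 20.9 and 20.7 in replicates 2 and 3. The counting setting for strand is not given in the sources used here, so reads of antisense transcripts at either gene could be included.

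A list of 13 other imprinted genes was examined beside the pair. It was chosen with earlier results of these data known, so its counts are a description. Against day 0, 2 of them rose and 7 fell on day 3, beside 31.8% and 34.8% of all genes. Day 7 had 9 that rose and 0 that fell (25.6% and 24.8% of all genes), as had day 10 (23.5% and 26.9%), and day 14 had 6 and 4 (28.2% and 34.5%). The list's median log2 fold change was -0.36 on day 3 and 1.23 on day 10, where the medians of all genes were -0.03 and -0.02. From day 3 to day 10, 12 of the 13 rose and none fell, beside 30.7% and 28.4% of all genes. Mest, a gene of mesodermal tissues, had between 217 and 583 counts on day 0 and between 11076 and 12292 on day 10, an increase of 5.05 (SE 0.20). Dlk1, a membrane protein that holds back adipocyte differentiation, had between 28 and 145 counts on day 0 and between 1722 and 1897 on day 10, an increase of 4.74 (SE 0.27).

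Plagl1, a zinc finger transcription factor known to act on Igf2 and H19, rose by 1.97 (SE 0.09) on day 7 and by 2.34 (SE 0.09) on day 10 against day 0. Cdkn1c, an inhibitor of cyclin-dependent kinases, fell on day 3 (-1.95, SE 0.10) and rose on day 10 (1.23, SE 0.09). Both had their highest mean on day 10, as had Mest and Dlk1. Mest differed from Igf2 and H19 on day 3, when it was already higher than on day 0 (1.59, SE 0.19). The list was not uniform, since Ndn, Sgce and Slc38a4 were at -0.15, -0.19 and -0.27 on day 10 and did not pass.

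**Figure D4:**
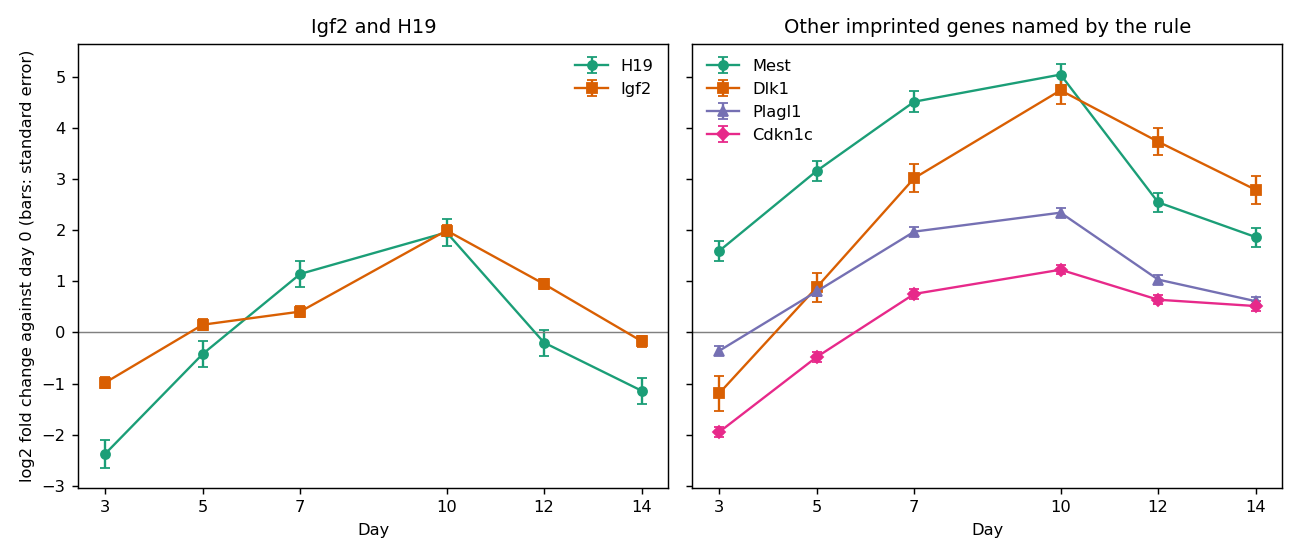
Log2 fold change against day 0 (y axis) by day (x axis) for H19 and Igf2 (left) and for the 4 other imprinted genes with the largest changes (right), with bars for the standard error. All 6 genes are highest on day 10, and Mest is the only one above day 0 on day 3.

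IGF2 mRNA is bound by the IGF2BP proteins, and a list of 6 regulators of this message was examined, of which 5 could be tested. All 5 rose on day 3 and 4 on day 5, beside 31.8% and 29.0% of all genes. Days 7 and 10 had 3 each that rose (25.6% and 23.5% of all genes). No member fell until day 12, when 3 rose and 1 fell (21.7% and 25.6%). These genes were scarce. Igf2bp3 had between 6 and 19 counts on day 0 and between 57 and 91 on day 7, an increase of 2.80 (SE 0.34). Lin28a had 0, 1, 1 and 11 counts on day 0 and 40, 67, 61 and 32 on day 3. Igf2bp1 had 1, 0, 6 and 0 counts on day 0 and 10, 11, 12 and 12 on day 3. Lin28a and Igf2bp1 had too few counts on day 0 to be tested by those libraries alone, and wound days brought them past the filter. The filter thus favoured a rise against day 0 for both, and the counts of this list are only a description. Hmga2, a chromatin protein that regulates Igf2bp2, had 167, 12, 7 and 95 counts on day 0 and rose on day 5 (1.74, SE 0.46). Its value on day 5 was 4.68 against day 0 replicates 2 and 3 and 0.84 against replicates 1 and 4, and both passed. A library at 0 allows up to 3 counts by counting error alone.

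Igf1r, the receptor, varied little, with a ratio of 1.31 between its highest and lowest wound-day means in FPKM. Its counts were 1676, 1623, 1447 and 1853 on day 0 and 1952, 1981, 1901 and 1919 on day 3, without overlap. By edgeR with Benjamini-Hochberg adjustment the increase on day 3 was 0.28 (SE 0.08, adjusted p = 0.0051), and it was 0.19 and did not pass against day 0 replicates 1 and 4 alone. No later day passed against all 4 day 0 libraries, with values between -0.18 and 0.10. Against day 0 replicates 1 and 4 alone, days 7 and 10 were lower (-0.28 and -0.32) and passed. Day 12 passed at 0.25 against replicates 2 and 3 alone and at 0.25 with library size as the only scaling, and it passed in all 3 limma fits of FPKM at 0.20 to 0.25. Between neighbouring days Igf1r fell from day 3 to day 5 (-0.25, SE 0.08) and rose from day 10 to day 12 by 0.29 (SE 0.08). The former call was lost in 2 of the 3 limma fits (-0.19 and -0.24) and without day 5 replicate 1 (-0.25) or 4 (-0.16). Over these steps H19, which holds the miR-675 sequences shown above, rose by 1.95 and fell by 2.16. In the other steps, to days 7, 10 and 14, Igf1r was at -0.17, -0.04 and -0.10 and did not pass, while H19 passed in each. Over the 28 libraries Igf1r had a Pearson r of -0.65 with H19, rank 17833 of 18106 genes, and of -0.57 with Igf2 and -0.54 with Igf1, a description of libraries that share their days. The mature microRNAs were not measured, and their part in the level of Igf1r was not tested.

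Of 23 genes for other receptors and signal carriers of the pathway, 10 rose and 7 fell on day 3, beside 31.8% and 34.8% of all genes. Day 7 had 7 and 7 (25.6% and 24.8%), day 10 had 6 and 5 (23.5% and 26.9%), and day 14 had 3 that rose and 9 that fell (28.2% and 34.5%). None passed the limits by which genes of a list were named. Of 6 genes of the growth hormone axis, which drives Igf1 in the liver, 3 rose and 0 fell on day 3 (31.8% and 34.8% of all genes). Day 10 had 0 and 1 (23.5% and 26.9%), and day 12 had 0 that rose and 5 that fell (21.7% and 25.6%). The medians of this axis were 0.42 on day 3 and -0.38 on day 12, beside -0.03 and -0.04 for all genes.

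Igfbp3 encodes the main carrier of IGFs in blood. Its counts were 19687, 27791, 26234 and 13598 for day 0. Day 3 gave 2965, 2726, 2726 and 2776 counts, and day 12 gave 11271, 11915, 12343 and 11653. All 24 wound-day libraries lay below all 4 of day 0. The gene fell most on day 3 (-2.90, SE 0.11) and on day 14 (-2.32, SE 0.11). In between, from day 5 to day 12, it lay between -1.47 and -1.07. Day 12, at -1.07, was at -1.35 against day 0 replicates 2 and 3 and at -0.71 against replicates 1 and 4, and both passed. It rose from day 3 to day 5 by 1.49 (SE 0.11) and fell from day 12 to day 14 (-1.25, SE 0.11), and its means at days 3, 12 and 14 were 17.8, 72.7 and 30.2 FPKM.

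Igfbp6, whose product prefers IGF2 over IGF1, also lay below day 0 in all 24 wound-day libraries. The day 0 libraries held 6143, 10845, 10432 and 5095 counts. Those of day 3 held 1899, 1868, 1889 and 1576, and those of day 14 held 2004, 2006, 2379 and 2400. The fall was largest on day 3 (-2.11, SE 0.14), nearly as large on day 14, and between -1.05 and -1.44 at the other times. Against day 0 replicates 1 and 4 alone, the values of those other times were between -0.96 and -0.56, and they were between -1.80 and -1.41 against replicates 2 and 3, all of which passed. Among wound days the mean was highest on day 12 at 85.2 ± 4.41 FPKM (SD, n = 4), 2.37 times that of day 3. It fell from day 7 to day 10 (-0.39, SE 0.14), with an edgeR p of 0.031 after Benjamini-Hochberg adjustment, and this call was lost without any 1 of 6 of the 8 libraries.

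Igfbp5, a binding protein that adheres to the matrix and is common in fibroblasts and muscle, had 29830, 54368, 51301 and 26078 counts on day 0. On day 3 it had 9988, 9018, 9400 and 8648 counts, and on day 10 it had 29217, 30793, 32752 and 29544. Days 3, 5 and 14 lay below day 0 without overlap, while the libraries of days 7, 10 and 12 overlapped with day 0 replicates 1 and 4. For days 3, 5 and 14 the falls were -2.06, -1.46 and -1.60 (SE 0.14 to 0.15). The latter 2 were -0.97 and -1.04 against day 0 replicates 1 and 4 alone and passed. On days 7, 10 and 12 they were -0.63, -0.46 and -0.51, which passed with all 4 day 0 libraries. In exact two-sided permutation tests of 4 libraries against 4 the p-values of these 3 days were 0.057, 0.26 and 0.14 (adjusted over 60 tests 0.082, 0.33 and 0.20). In fits of only the 8 libraries compared, days 10 and 12 were at -0.45 and -0.52 and did not pass. Of the 3 limma fits of FPKM, 2 lost the call on day 10 and all 3 lost that on day 12. Against replicates 1 and 4 alone the values of these days were -0.15, 0.02 and -0.02 and did not pass, while against replicates 2 and 3 they were -0.98, -0.81 and -0.87 and passed. For these 3 binding protein genes the day 0 libraries with more matrix fibroblast marker RNA, replicates 2 and 3, held the higher counts, and the part of these cells was not tested.

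Igfbp2 turned from below to above day 0. On day 0 it had 2157, 2030, 1889 and 2271 counts. Day 3 held 474, 373, 480 and 277 counts, and day 12 held 5363, 5186, 4968 and 4405. Neither the libraries of day 3 nor those of day 12 overlapped with day 0. The changes at days 3, 5 and 7 were -2.33, -2.13 and -0.68, and those at days 10, 12 and 14 were 0.46, 1.05 and 0.92, with SE of 0.12 to 0.13. All 6 values passed, kept their direction against either pair of day 0 libraries, and had the smallest exact permutation p of 0.0286 (adjusted over 60 tests 0.044). The day 0 libraries lay close together for this gene, at 31.3 ± 3.57 FPKM (SD, n = 4).

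Igfbp2 rose 12.0-fold between day 3, at 5.97 ± 1.43 FPKM, and day 12, at 71.7 ± 5.79 FPKM. The increases from day 5 to day 7, from day 7 to day 10 and from day 10 to day 12 were 1.45, 1.14 and 0.60. Its neighbour Igfbp5 rose over the first of these steps by 0.83 (SE 0.14) and was at 0.17 and -0.06 in the others, which did not pass. From day 12 to day 14 Igfbp5 fell (-1.08, SE 0.14) and Igfbp2 was at -0.14 (SE 0.11), which did not pass. Hair follicle markers (Krt25, Krt27, Krt31, Krt71, Krt73, Padi3 and Shh) summed to between 3.37 and 12.7 CPM on days 3 and 5 and to between 2965 and 4484 CPM on days 12 and 14. On both late days 7 of 7 of these markers were higher than on day 0, beside 21.7% and 28.2% of all genes, and none was at 0 in any library. On day 10 they summed to between 216 and 250 CPM, below day 7 at between 790 and 1069 CPM, while Igfbp2 was above day 7. Their part in the level of Igfbp2 was not tested.

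Igfbp4, whose product is cleaved by pappalysin to release IGF, was highest on day 14. It had 12733, 15490, 15212 and 12971 counts on day 0 and 23670, 23202, 26961 and 24707 on day 14, without overlap. It was at -0.00, 0.08 and 0.14 (SE 0.06 each) on days 3, 5 and 7, which did not pass, and rose by 0.32, 0.35 and 0.68 at days 10, 12 and 14 (SE 0.06 each). The call on day 7 was gained against day 0 replicates 1 and 4 alone (0.23), with library size as the only scaling (0.15) and in all 3 limma fits (0.15 each), and that on day 5 against replicates 1 and 4 alone (0.18). It was the only one of the 10 genes with its highest mean on day 14, at 195 ± 11.4 FPKM (SD, n = 4). In a list of 7 extracellular regulators, of which 6 were in the table and tested, 0 rose and 4 fell on day 5 (29.0% and 30.6% of all genes) and 3 rose and 2 fell on day 14 (28.2% and 34.5%). The list summed to between 222 and 292 CPM on day 0, 116 and 125 CPM on day 3, and 288 and 309 CPM on day 10. It lay between 292 and 315 CPM on day 12 and between 198 and 237 CPM on day 14. Pappa, the protease that cleaves IGFBP4, fell on day 3 (-0.81, SE 0.21) and rose to 1.51 (SE 0.20) on day 12. Pappa2, a related protease that cleaves IGFBP3 and IGFBP5, was lower than on day 0 on all 6 wound days, most on day 7 (-2.54, SE 0.17), with between 771 and 1320 counts on day 0 and between 124 and 201 on day 7.

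Igfbp7, which is produced strongly by vessels, was higher than on day 0 on all 6 wound days. It had 12570, 13618, 12783 and 10856 counts on day 0 and 19353, 19861, 19862 and 20318 on day 3. Every library of every wound day was above day 0 on the CPM scale. The increases in time order were 0.73, 0.60, 0.51, 0.50, 0.15 and 0.32, each with an SE of 0.06. The value on day 12 passed (Benjamini-Hochberg adjusted p = 0.024 by edgeR) and did not pass against day 0 replicates 2 and 3 alone, at 0.11, or in the fit of only the 8 libraries of days 0 and 12, at 0.15. Endothelial markers (Cdh5, Emcn, Kdr, Pecam1 and Vwf) summed to between 762 and 830 CPM on day 3, when 4 of 5 were higher and 1 lower than on day 0 (31.8% and 34.8% of all genes). On day 12 they summed to between 397 and 436 CPM, when none was higher and 2 were lower (21.7% and 25.6% of all genes). On day 14 they summed to between 368 and 427 CPM, while Igfbp7 rose from day 12 to day 14 by 0.16 (SE 0.06). None was at 0 in any library, and their part in the level of Igfbp7 was not tested.

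Per length, Igfbp7 was the most abundant binding protein transcript on every day, and the others changed places below it. It made up 30.5% ± 4.37 (SD, n = 4) of the summed FPKM of Igfbp2 to Igfbp7 on day 0 and 66.9% ± 1.00 on day 3. By day 10 its share was 46.8% ± 0.61, and by day 12 it was 38.2% ± 0.42. Igfbp3, Igfbp5 and Igfbp6 made up 15.5%, 19.6% and 17.9% of the sum on day 0 and 2.84%, 6.47% and 5.73% on day 3. Igfbp4 went from 12.9% ± 1.77 on day 0 to 25.8% ± 0.77 on day 14. Igfbp2 went from 0.95% ± 0.23 on day 3 to 8.47% ± 0.55 on day 12.

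The summed FPKM of these 6 genes was 627 ± 3.80 on day 3, 847 ± 17.3 on day 12 and 882 ± 163 on day 0. Set against the summed FPKM of Igf1 and Igf2, binding protein transcripts were 32.6 ± 1.42 times (SD, n = 4) as abundant on day 3, 17.7 ± 0.34 times on day 10 and 38.4 ± 2.75 times on day 14. All 4 libraries of day 10 lay between 17.4 and 18.1, below every library of every other day. On day 0 the libraries lay between 37.3 and 49.6. These ratios were computed after the values were seen.

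**Figure D5:**
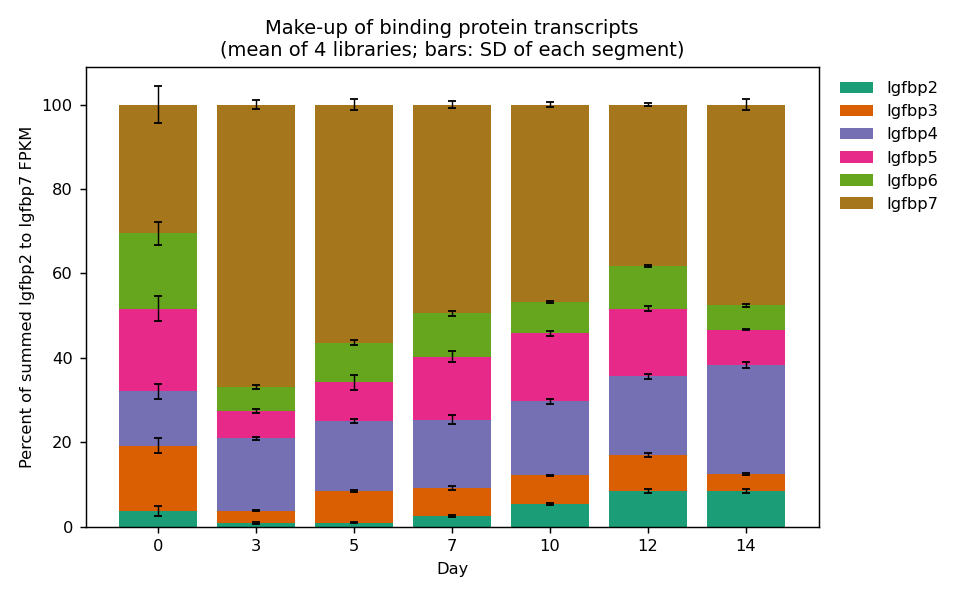
Share of each binding protein gene in the summed FPKM of Igfbp2 to Igfbp7 (y axis, percent) by day (x axis), as stacked means of 4 libraries with the SD of each segment. Igfbp7 takes 66.9% on day 3, when Igfbp2, Igfbp3, Igfbp5 and Igfbp6 have their smallest shares, and Igfbp4 takes its largest share, 25.8%, on day 14.

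The genes whose log2 CPM followed a member most closely over the 28 libraries are given as a description. For Igf2 they were Mex3d (Pearson r = 0.92), Megf6 (0.91), Aplp1 (0.91), Col7a1 (0.90) and Ncam1 (0.89) among 18106 genes, with H19 at rank 20 (r = 0.87). For H19 they were Col7a1 (0.95), Itm2a (0.95), Fibin (0.95), Angptl2 (0.94) and Rbfox2 (0.93), with Igf2 at rank 38. For Igf1 they were Fbxl7 (0.92), Arhgef40 (0.90), Pheta2 (0.90), Tcaf1 (0.90) and Dsel (0.90), with Igf2 at rank 824 (r = 0.58) and H19 at rank 855 (r = 0.57). Libraries of the same day share much of this likeness.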

How the data were processed

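RNA of whole wound sites came from TRIzol extraction, with sequencing libraries from a VAHTS Universal V6 kit. The authors deposited raw counts per gene symbol for 28 libraries, and also FPKM values made from the same counts. The submitters' processing notes name fastp, R 3.2.0 and the build mm10. The aligner, counter, annotation and strand setting are not given in the sources used here. The study used DESeq2.

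Counts were analysed with edgeR 4.0.16 in R 4.3.3 (TMM, filterByExpr, glmQLFit, then two-sided glmQLFTest), all 7 days fitted together, with 21 residual degrees of freedom and Benjamini-Hochberg adjustment over 18107 genes. Log2 CPM used a prior count of 2. Exact permutation tests compared 4 libraries with 4. The scripts were tested on simulated counts. Alternatives were DESeq2 1.42.0, other scaling, no filter, the 8 libraries of each comparison, limma 3.58.1 on log2(FPKM + 1) or log2(FPKM + 0.1), the study's limits, a replicate block and each library left out. All 10 members were named, with at most 4 genes per pathway list (log2 fold change over 1.5, adjusted p under 0.05, no overlap with day 0 on some day) and the 5 genes most like Igf1, Igf2 and H19. Ndn, Sgce and Slc38a4, outside this rule, were named after their values were seen. Members and lists were chosen with earlier results of these data known. Igfbp1, on the list of extracellular regulators, was not analysed here. Positions are from GENCODE M21 and microRNA sequences from RefSeq. No 2 libraries of a day were alike within counting noise (mean chi-square per gene at least 4.46). Counting error alone limits precision little at these depths, and intervals for it were not needed.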

Additional observations from a re-analysis of the deposited data

Results flagged for a closer look

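In 7 of 70 groups of 4 libraries (10 genes on 7 days), 1 library lay far from the other 3, and chance gives such a gap in about 1 in 20 groups. Igf2 in day 0 replicate 1 was at 4.62 log2 CPM, above the others at 4.16 to 4.23. H19 in day 3 replicate 1 was at 5.64, below the others at 6.05 to 6.13, and the same library held the fewest Igf2 counts of its day. In day 5 replicate 4, Igfbp4 was at 8.80, above 8.54 to 8.55, and Igfbp5 was at 8.24, below 8.64 to 8.71. Igfbp5 was also low in day 7 replicate 4, at 9.17 against 9.47 to 9.52. Igfbp6 in day 3 replicate 4 was at 5.44, below 5.67 to 5.69, and Igfbp3 in day 14 replicate 3 was at 6.93, above 6.79 to 6.80.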

How the results depend on the processing

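Of 980 single-gene changes refitted with another setting and all libraries or another day 0 reference, 910 kept their direction and their side of the threshold, 24 lost a call, 20 gained one and 26 changed sign. Of 242 counts of members, 222 stayed within 1.5 times. The cause of these differences was not tested. The study's limits gave 0 members higher on days 3, 5, 7, 12 and 14 and 2 on day 10, and 0 lower on days 7, 10 and 12 and 1 on day 5. Sign changes were mostly of values near 0. On day 3 Igfbp4 was at 0.011 with DESeq2's size factors and with DESeq2, and Igf1 at -0.0046 with library size alone, a scaling that moved the median of all genes to 0.11 on day 12. On day 5, Igf1r was at -0.013 with library size alone, and Igf1 and Igf1r were at 0.0065 and -0.012 with limma on log2(FPKM + 1), for all genes as for those whose mean FPKM was at least 1, and at 0.012 and -0.016 on log2(FPKM + 0.1). In all 3 limma fits H19 was at 0.21 on day 12. Members lower from day 7 to day 10 were 0 with library size alone and with limma, those lower from day 3 to day 5 were 2 with DESeq2 and 0 with limma on all genes, and those higher on day 7 were 2 in the fit of 8 libraries.

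With day 0 replicates 2 and 3 as the reference, chosen after seeing the data, Igf1 was at -0.38 and -0.29 on days 3 and 12, H19 at 0.71 and 0.93 on days 5 and 12, Igfbp4 at -0.0032 on day 5 and Igf1r at 0.0065 on day 7. With replicates 1 and 4, Igfbp4 was at 0.14 on day 3, Igf1 at 0.61 and 0.49 on days 5 and 14, Igf1r at -0.099, -0.019 and -0.059 on days 5, 12 and 14, and Igfbp5 at 0.021 on day 10. Either reference gave 3 members higher on day 5.

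Leaving out 1 library also repeats the filter and the scaling, so its range need not hold the full value. Igf1 ranged from -0.064 to 0.24 on day 3, from -0.20 to 0.14 on day 5, from -0.0053 to 0.33 on day 12 and from -0.31 to 0.0016 on day 14, and H19 from -0.67 to 0.10 on day 5 and from -0.43 to 0.33 on day 12. Igf2 ranged from -0.22 to 0.026 on day 14, Igfbp4 from 0.0045 to 0.068 on day 3, and Igf1r from -0.043 to 0.13 on day 5 and from -0.020 to 0.17 on day 14. Members higher on day 5 ranged from 1 to 2, those lower over the steps to days 5, 7 and 10 from 0 to 2, 0 to 1 and 0 to 1, and those higher from day 10 to day 12 from 2 to 3, where all libraries gave 4. Igfbp5 on day 10 lost its call without day 0 replicate 2 (-0.30) or 3 (-0.33), and Igfbp7 on day 12 without day 0 replicate 4 or day 12 replicate 1 (0.13 each).

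The replicate numbers do not pair the libraries, since the correlation of same-numbered deviations lay between -0.08 and 0.18 and 8 of 28 libraries were most like their own number. With the number as a block all 124 results kept their call, for example H19 at 2.03 and Igf2 at 1.996 on day 10, with 6 members higher and 3 lower.

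On each day every pair of libraries differed by more than the counting error that their depth allows.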
